A study of Mus musculus with 24 samples.

Results

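The circadian clock genes described here are *Per1*, *Per2*, *Per3*, *Cry1*, *Cry2*, *Dbp*, *Nr1d1*, *Nr1d2*, *Arntl* and *Clock*, 10 of the 24079 genes counted in the study. They were chosen by symbol, as core members of the clock and its best known output, and all 10 were found and passed the filter on low counts in every comparison. The study sequenced poly-A RNA of 2 striatal regions, the nucleus accumbens (Acb) and its dorsal counterpart (the dorsal striatum, DS), of rpS6 P-/- mice, a knockin in which every phosphorylation site of ribosomal protein S6 is replaced by alanine, and of their wild-type littermates (wt). From each region and genotype it took RNA of heavy polysomes (4 or more ribosomes) and RNA of the whole cytosolic lysate, with 3 replicates each, giving 8 groups and 24 libraries. All mice shared a mixed C57Bl/6/Sv129/ICR background, both sexes were used, and each replicate pooled the tissue of several mice. The ages of the mice and the hour at which they were killed are not given in the sources used here, which state only that they lived under a regular light/dark cycle. Since the knockin changes single codons, read counts per gene cannot check the genotype labels.

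In mammals CLOCK and ARNTL (BMAL1) pair on DNA and switch on the *Per* and *Cry* genes, whose proteins return to the nucleus and shut the pair off. A second loop runs through REV-ERBα and REV-ERBβ, the products of *Nr1d1* and *Nr1d2*, which repress *Arntl*, so that *Arntl* mRNA peaks at the opposite phase of the day to *Dbp*, *Nr1d1* and the *Per* genes. *Dbp* codes for a transcription factor that carries the rhythm to other genes, and *Per1* and *Per2* are also induced within minutes to hours by neuronal activity and by glucocorticoids.

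Libraries held 9280589 to 34703044 reads assigned to genes, and the members averaged 396 (*Per2*) to 3227 (*Nr1d2*) reads per library, so counting error was small beside the spread between replicates. Levels are given as CPM, a gene's reads per 1000000 assigned reads after edgeR's TMM scaling of library sizes, and differences as log2 fold changes ± standard error with p-values of edgeR's quasi-likelihood test, adjusted over all genes tested (Benjamini-Hochberg, threshold 0.05). Markers of medium spiny neurons, the output neurons of the striatum, summed to 4223 to 7310 CPM over the 24 libraries. Markers of cortical excitatory neurons summed to 275 to 417 CPM in Acb libraries and to 1064 to 1419 CPM in DS libraries, without overlap.

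Per kilobase of merged exon, *Dbp* was the most abundant member in wt lysates, at 56.6 ± 10.7 CPM/kb in the Acb and 59.4 ± 2.69 CPM/kb in the DS (SD, n = 3). Its level did not overlap that of any other member there. In the Acb lysates *Nr1d1* (28.5 ± 2.48 CPM/kb), *Nr1d2* (27.7 ± 1.76) and *Cry2* (27.5 ± 1.02) followed and overlapped one another, whereas in the DS lysates they stood apart in the order *Nr1d1*, *Cry2*, *Nr1d2*, at 41.8 ± 4.60, 32.6 ± 2.40 and 26.7 ± 3.65 CPM/kb. *Per1* came next in both regions (13.2 ± 1.68 in the Acb and 14.9 ± 2.16 in the DS), and *Per2* and *Per3* were lowest, between 4.06 and 4.92 CPM/kb on average, with overlapping libraries. *Arntl* held the largest regional shift in rank, from 6.53 ± 1.08 CPM/kb in the Acb to 13.4 ± 0.355 CPM/kb in the DS. Its merged exons (3090 bases) are shorter than its longest transcript (3995 bases), so that its rank depends on the length used.

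**Figure D1:**
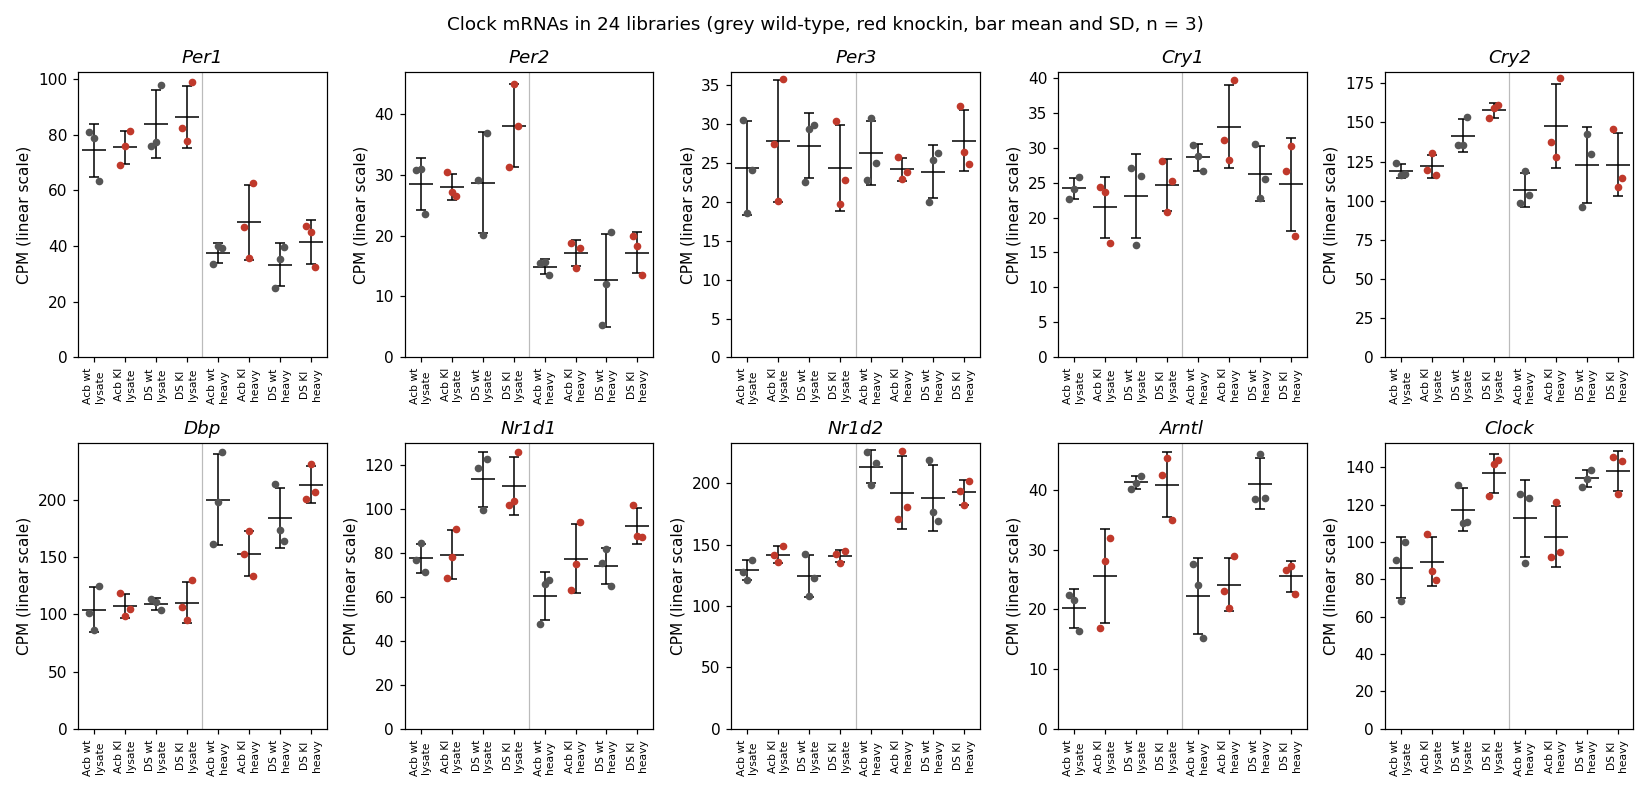
CPM of the 10 clock mRNAs (vertical axes, linear, from 0) in the 8 groups, with whole lysates left and heavy polysomes right of the grey line. Points are libraries, bars are the mean and SD of 3. *Per1* and *Per2* sit lower and *Dbp* and *Nr1d2* higher right of the line, and *Arntl* is low in every Acb group and in the knockin DS heavy group.

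The elements through which the loops of the clock reach their genes are shown as background to the members. Promoter windows of RefSeq (build GRCm38.p6, 250 bases before to 50 bases after a start) were present for 9 members, with *Per2* the exception. CLOCK and ARNTL bind the E-box, CACGTG, present on either strand in 7.15% of all 32851 windows, and a relative, CACGTT (4.68%). DBP and its kin bind the D-box, of which TTATGTAA occurs in 0.938% of windows and TTACGTAA in 0.119%, and the RORs and REV-ERBs bind an element found in 0.384%. The cyclic AMP response element TGACGTCA (1.79%) and all others were searched on both strands. The stretches that held a match follow, 5′ to 3′ on the strand of the gene, with the match in capitals (AACGTG is CACGTT read on the other strand), and those of *Dbp*, *Nr1d2* and *Clock* held none of these letters in the windows searched.
Per1: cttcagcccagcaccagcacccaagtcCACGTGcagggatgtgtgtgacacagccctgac
Cry1: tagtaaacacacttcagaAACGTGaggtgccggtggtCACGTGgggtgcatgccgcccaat
Cry2: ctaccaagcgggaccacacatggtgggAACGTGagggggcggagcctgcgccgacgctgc
Nr1d1: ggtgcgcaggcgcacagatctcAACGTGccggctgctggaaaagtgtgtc
Per3: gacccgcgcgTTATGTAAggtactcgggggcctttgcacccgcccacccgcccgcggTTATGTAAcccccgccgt
Arntl: ggaaggcagAAAGTAGGTCAgggacggag
These lie at chr11:69098756-69098815 (+ strand), chr10:85185091-85185151 (-), chr2:92434203-92434262 (-), chr11:98775378-98775427 (-), chr4:151044806-151044880 (-) and chr7:113207528-113207556 (+), in that order. *Per1* and *Cry1* carried E-boxes, *Per3* carried 2 D-boxes, and *Arntl* carried the element of the REV-ERBs 26 to 36 bases after one of its starts. A match of letters is a description of the promoter and was not tested for binding in striatum.

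The clearest separation among the members was between heavy polysomes and whole lysates. After TMM scaling this compares the level of a message relative to other messages, and not its share of all RNA. The RNA *Bc1* alone took 15.2% to 26.1% of assigned reads in lysates and 0.897% to 3.85% in heavy polysomes. *Per1* and *Per2* fell and *Dbp* and *Nr1d2* rose in heavy polysomes of both regions. In the Acb 3 of the 10 members rose (*Dbp*, *Nr1d2*, *Cry1*) against 15.6% of all genes, and 2 fell (*Per1*, *Per2*) against 14.3%. In the DS 2 rose (*Dbp*, *Nr1d2*) against 19.5% of all genes, and 5 fell (*Per1*, *Per2*, *Nr1d1*, *Arntl*, *Cry2*) against 17.5%. The median log2 fold change was 0.01 over the members and 0.04 over all genes in the Acb, and -0.14 and 0.03 in the DS. The members therefore did not move together as a list, and the description below is by gene. By the methods, which keep an input of each sample loaded on a gradient, the heavy and lysate libraries of a replicate came from the same pooled mice. The labels give only the shared replicate number. On that basis the hour of dissection is shared within each such pair.

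*Per1* (chr11:69095108-69109965), a repressor of CLOCK and ARNTL, was measured in Acb lysates at 80.8, 78.9 and 63.5 CPM in wt and at 69.2, 75.8 and 81.2 CPM in knockin mice. Heavy polysomes of the same lysates held 33.4, 40.1 and 39.2 CPM in wt and 46.9, 35.8 and 62.7 CPM in knockin mice. All 6 heavy libraries lay below all 6 lysates, although the highest knockin library came close. *Per1* fell by 0.84 ± 0.14 on the log2 scale (1.79-fold, adjusted p = 1.75e-05, edgeR). In the DS the lysates held 76.1, 77.4 and 97.7 CPM in wt and 82.5, 77.8 and 98.9 CPM in knockin mice, and the heavy libraries held 24.8, 35.2 and 39.7 CPM in wt and 47.2, 44.9 and 32.5 CPM in knockin mice. Again no heavy library reached a lysate, and *Per1* fell by 1.19 ± 0.13 (2.28-fold, adjusted p = 1.12e-10, edgeR).

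*Per2* (chr1:91415977-91459351), the partner of *Per1* in the same repressor complex, behaved alike with fewer reads behind it. In Acb lysates it ranged from 23.5 to 30.9 CPM and in heavy polysomes from 13.5 to 18.8 CPM, without overlap, and fell by 0.85 ± 0.15 (adjusted p = 6.82e-05, edgeR). In the DS the lysates ranged from 20.2 to 44.9 CPM and the heavy libraries from 5.29 to 20.5 CPM, with a fall of 1.15 ± 0.20 (adjusted p = 3.36e-06). The groups touched there, since wt replicate 1 of the DS heavy polysomes was far below the others and wt replicate 3 just above the lowest lysate. *Per3* (chr4:150997018-151044707), which is not needed for a working clock, gave -0.08 ± 0.16 in the Acb and 0.01 ± 0.16 in the DS (adjusted p = 0.779 and 0.986).

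*Dbp* (chr7:45705100-45710203) showed the opposite order. Acb lysates held 101, 86.3 and 125 CPM in wt and 119, 98.3 and 105 CPM in knockin mice, and the heavy polysomes 162, 198 and 242 CPM in wt and 152, 173 and 134 CPM in knockin mice. DS lysates held 113, 111 and 104 CPM in wt and 106, 94.8 and 130 CPM in knockin mice, and the heavy polysomes 214, 174 and 164 CPM in wt and 201, 232 and 207 CPM in knockin mice. Every heavy library was above every lysate of its region. *Dbp* rose by 0.70 ± 0.13 in the Acb (1.62-fold, adjusted p = 6.18e-05, edgeR) and by 0.85 ± 0.10 in the DS (1.81-fold, adjusted p = 2.12e-09). Its relatives *Tef* and *Hlf*, the other PAR bZIP transcription factors, also rose in both regions, by 0.36 ± 0.11 and 0.39 ± 0.12 in the Acb and by 0.49 ± 0.09 and 0.46 ± 0.10 in the DS (adjusted p at most 0.0151).

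The REV-ERB genes parted from each other. *Nr1d2* (chr14:18204056-18239106) ranged from 121 to 149 CPM in Acb lysates and from 171 to 226 CPM in heavy polysomes, and from 108 to 145 CPM against 169 to 219 CPM in the DS. These ranges did not overlap in either region, and *Nr1d2* rose by 0.55 ± 0.11 in the Acb and 0.52 ± 0.10 in the DS (adjusted p = 0.000197 and 2.84e-05, edgeR). *Nr1d1* (chr11:98767932-98775377) fell by 0.44 ± 0.11 in the DS (adjusted p = 0.00102), where lysates ranged from 99.4 to 126 CPM and heavy polysomes from 65.1 to 102 CPM, a narrow overlap. Knockin libraries alone gave -0.30 there (adjusted p = 0.133). In the Acb its difference was -0.22 ± 0.13 (adjusted p = 0.221), with overlapping ranges.

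The remaining members moved little or uncertainly. *Cry1* (chr10:85131700-85185054), a strong repressor of CLOCK and ARNTL, was 0.40 ± 0.15 higher in Acb heavy polysomes (adjusted p = 0.0482, edgeR), a call kept under 5 of 16 alternatives and lost without knockin lysate 3 (0.23, adjusted p = 0.265). With the lysate as a block it did not pass the threshold either (adjusted p = 0.0722). *Arntl* (chr7:113178471-113314126) was lower in DS heavy polysomes (-0.34 ± 0.14, adjusted p = 0.0483), a call kept under 8 of 16 alternatives, and wt libraries alone gave -0.01 (adjusted p = 0.985). *Cry2* (chr2:92403646-92434085) fell by 0.28 ± 0.11 in the DS (adjusted p = 0.0311), a call kept under 9 of 16 alternatives and lost, for example, without knockin lysate 3 (adjusted p = 0.115). *Clock* (chr5:76209868-76305603) gave 0.26 ± 0.13 in the Acb and 0.10 ± 0.10 in the DS (adjusted p = 0.123 and 0.463).

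**Figure D2:**
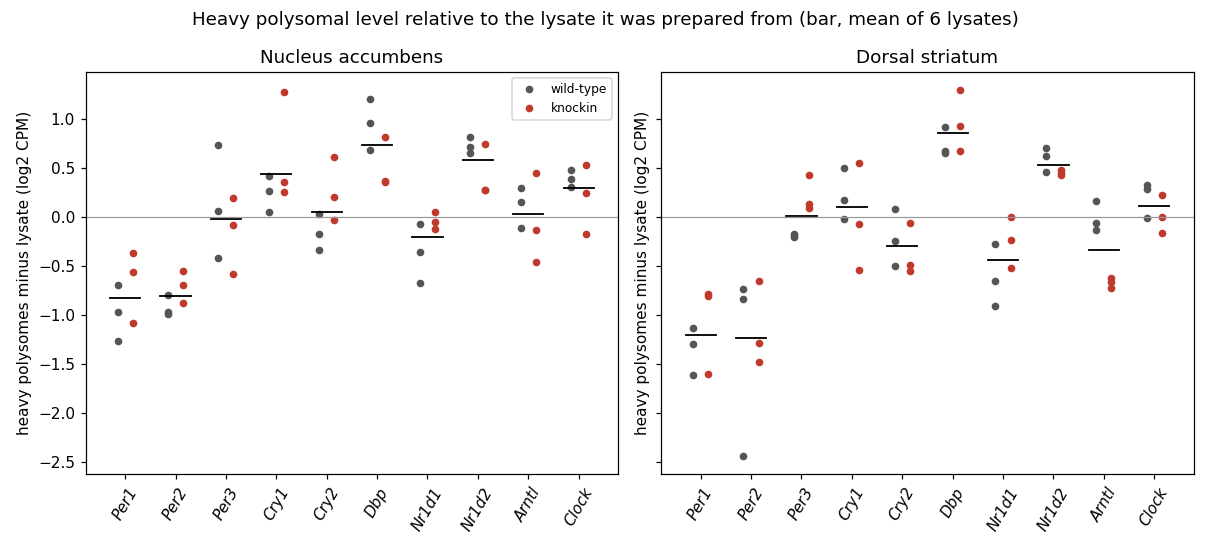
Heavy polysomal level minus lysate level (log2 CPM, vertical axis) of each clock mRNA in each of the 6 lysates of the Acb (left) and the DS (right), with wt in grey and knockin in red and a bar at the mean. All 6 points of *Per1* and *Per2* lie below 0 and all 6 of *Dbp* and *Nr1d2* above 0 in both regions.

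Length moved with this comparison. Over all genes tested the change between heavy polysomes and lysates ran against the length of the coding sequence (Spearman's rho across genes -0.386 in the Acb and -0.550 in the DS, where genes are no independent replicates), and the coding sequences of the members run from 975 bases (*Dbp*) to 3873 bases (*Per1*) and 3771 bases (*Per2*). With a trend on coding length removed from each library, an adjustment chosen after the data were seen, *Per1* gave -0.42 and *Per2* -0.43 in the Acb (adjusted p = 0.00868 and 0.0273, edgeR) and -0.60 and -0.58 in the DS (adjusted p = 3.80e-05 and 0.00935). *Dbp* gave 0.38 and 0.56 (adjusted p = 0.0126 and 5.06e-06). *Nr1d2* gave 0.53 and 0.64. *Clock*, whose transcript of 9744 bases is the longest among the members, passed the threshold in both regions once the trend was removed, at 0.47 in the Acb (adjusted p = 0.0042) and 0.47 in the DS (adjusted p = 8.50e-05), and did so with a trend on transcript length as well (0.67 and 0.72). *Per3* gave 0.27 in the Acb (adjusted p = 0.250) and 0.52 in the DS (adjusted p = 0.00643) under the coding length adjustment. The part of length in the unadjusted differences of single genes was not tested.

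Between regions, lysates differed in 4 members, among them both partners of the activating pair. *Arntl*, *Clock*, *Nr1d1* and *Cry2* were lower in the Acb than in the DS, 4 of 10 members where 9.56% of all genes were lower, and 0 members were higher, where 9.71% of all genes were. The median log2 fold change was -0.17 over the members and 0.01 over all genes. In bulk tissue such as this, fewer cells of a type and less RNA per cell cannot be told apart.

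*Arntl* was measured in Acb lysates at 22.5, 21.7 and 16.4 CPM in wt and 16.9, 28.1 and 31.9 CPM in knockin mice. In DS lysates it was 40.2, 41.3 and 42.4 CPM in wt and 42.5, 45.4 and 35.0 CPM in knockin mice. No Acb library reached a DS library, and the log2 fold change was -0.82 ± 0.15 (1.76-fold, adjusted p = 2.49e-05, edgeR). *Clock*, its DNA-binding partner, ranged from 68.3 to 104 CPM in the Acb and from 110 to 144 CPM in the DS, also without overlap (-0.49 ± 0.10, adjusted p = 7.74e-05). *Nr1d1* was at 68.7 to 91.0 CPM in the Acb against 99.4 to 126 CPM in the DS (-0.48 ± 0.10, adjusted p = 9.77e-05), whereas its paralog *Nr1d2* gave 0.07 ± 0.09 (adjusted p = 0.691). *Cry2* differed least of those called (-0.27 ± 0.08, adjusted p = 0.013) and was not called in wt libraries alone (-0.22, adjusted p = 0.309). *Dbp* (-0.02 ± 0.10), *Per1* (-0.15 ± 0.10), *Per2* (-0.19 ± 0.15), *Per3* (0.05 ± 0.17) and *Cry1* (-0.03 ± 0.17) did not pass the threshold (adjusted p at least 0.368).

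The same direction was seen in heavy polysomes for *Arntl* (-0.48 ± 0.18, adjusted p = 0.0625) and *Clock* (-0.34 ± 0.12, adjusted p = 0.0502), but 0 of 10 members passed there, where 19.8% of all genes did, and 3 of 10 members had an unadjusted p under 0.05 against 32.2% of all genes. The third was *Nr1d1* (-0.27 ± 0.13, adjusted p = 0.154, edgeR), and the other 7 members lay between -0.18 (*Dbp*) and 0.27 (*Cry1*). DESeq2 called *Arntl* and *Clock*. *Arntl* was called under 5 and *Clock* under 6 of 20 alternatives. For *Arntl* wt libraries alone gave -0.88 (adjusted p = 0.021, edgeR) and knockin libraries alone -0.06 (adjusted p = 0.872), while for *Clock* they gave -0.24 and -0.41 (adjusted p = 0.452 and 0.113).

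Cell types moved with the regions as well. In the lysates 6 of 8 markers of cortical excitatory neurons were lower in the Acb, against 9.56% of all genes. Their median log2 fold change was -2.65, and *Neurod6* gave -4.29 ± 0.22. Higher, against 9.71% of all genes, were 6 of 8 astrocyte, 7 of 8 microglial, 5 of 8 oligodendrocyte and 3 of 6 choroid plexus markers tested. Endothelial markers gave 0 calls of 8 (2 at an unadjusted p under 0.05, against 29.2% of all genes), and medium spiny neuron markers 4 higher and 5 lower of 10. In heavy polysomes 6 cortical markers were lower and 1 higher, and 2 oligodendrocyte markers were higher and 1 lower. *Arntl* followed the cortical markers within groups too. Over the 12 Acb libraries, deviations of *Arntl* from the group means correlated with those of the summed cortical markers at r = 0.91, but over the 12 DS libraries at r = -0.23. *Neurod6* was the gene with the second highest correlation with *Arntl* among 11978 genes (r = 0.84 over 24 libraries, with 2 libraries from each lysate). How much of the regional difference of *Arntl*, *Clock*, *Nr1d1* or *Cry2* goes with cortical RNA was not tested.

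**Figure D3:**
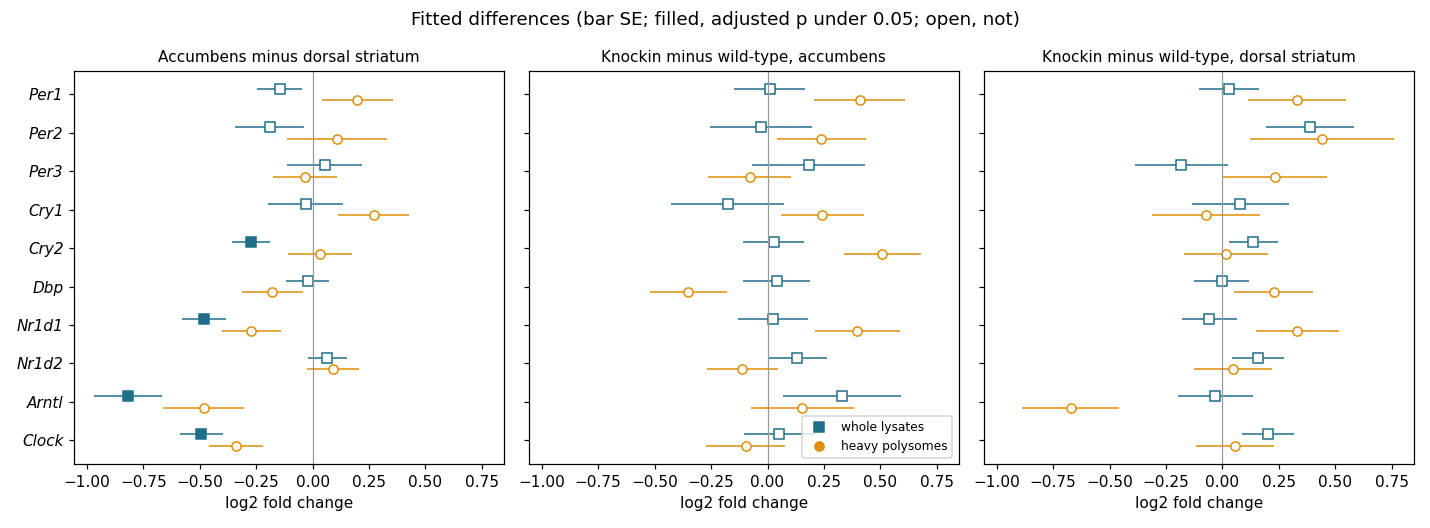
Fitted log2 fold change (horizontal axis) with SE for the 10 clock mRNAs between regions (left) and between genotypes in the Acb (middle) and DS (right). Squares are whole lysates, circles heavy polysomes, and filled symbols have an adjusted p under 0.05. The 4 filled symbols, *Arntl*, *Clock*, *Nr1d1* and *Cry2*, all belong to the lysates of the regional comparison.

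Genotype had no detectable effect on any member in edgeR's test. In heavy polysomes of the Acb 0 of 10 members and 0% of all genes were called, although 3518 of 16227 genes (21.7%), *Cry2* among them, had an unadjusted p under 0.05 and DESeq2 called 1090 genes. In Acb lysates 0 members and 0.0065% of all genes passed, in DS heavy polysomes 0 members and 0.044%, and in DS lysates 0 members and 0.122%. At an unadjusted p under 0.05 stood 1 of 10 members in Acb heavy polysomes (*Cry2*), 1 in DS heavy polysomes (*Arntl*), where 6.42% of all genes did, and 0 in the lysates, where 2.96% of all genes did in the Acb and 9.07% in the DS.

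*Cry2* in Acb heavy polysomes measured 98.4, 119 and 103 CPM in wt and 138, 128 and 178 CPM in knockin mice. The genotypes did not overlap, and the log2 fold change was 0.51 ± 0.17 (adjusted p = 0.130, edgeR). DESeq2 called it and no other member (0.50, adjusted p = 0.0403), and called 0 members in the other 3 genotype comparisons. In Acb lysates *Cry2* gave 0.03 ± 0.13. *Arntl* in DS heavy polysomes measured 38.6, 46.1 and 38.7 CPM in wt and 26.7, 27.4 and 22.6 CPM in knockin mice, again without overlap, with a log2 fold change of -0.67 ± 0.21 (adjusted p = 0.459, edgeR). DS lysates gave -0.03 ± 0.17 for *Arntl*. Of the other differences between genotypes, *Per2* in DS heavy polysomes gave 0.44 ± 0.32, a value of 0.08 without wt replicate 1, which held 58 reads of *Per2* (5.29 CPM), and of 0.99 without wt replicate 3 (20.5 CPM). In DS lysates *Per2* gave 0.39 ± 0.20. *Per1* was 0.41 ± 0.20 in Acb and 0.33 ± 0.22 in DS heavy polysomes, *Nr1d1* 0.40 ± 0.19 and 0.33 ± 0.18, and *Dbp* -0.35 ± 0.17 and 0.23 ± 0.17. *Arntl* gave 0.33 ± 0.26 in Acb lysates. *Per3*, *Nr1d2*, *Clock* and *Cry1* lay between -0.18 (*Per3* in DS lysates) and 0.24 (*Cry1* in Acb heavy polysomes) in all 4 comparisons, and the values left over lay within that range too.

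Whether the genotype effect differed between heavy polysomes and lysates, the measure of translational efficiency, was tested as an interaction. It was called for 0 of 10 members and 0% of genes in the Acb and for 0 of 10 and 0% in the DS. Unadjusted p-values under 0.05 were found for 1992 genes in the Acb (11.9%) and for 1 of 10 members, *Cry2* (0.48 ± 0.22, adjusted p = 0.391), and for 811 genes in the DS (4.90%) and 1 member, *Arntl* (-0.67 ± 0.27, adjusted p = 1). The other members lay between -0.40 (*Dbp*) and 0.42 (*Cry1*) in the Acb and between -0.18 (*Cry1*) and 0.38 (*Per3*) in the DS. DESeq2 called 0 genes in either. The difference in genotype effect between regions was called for 0 members and 0.00611% of genes in lysates and for 0 members and 0.00592% in heavy polysomes, where *Arntl* gave 0.84 ± 0.31 (adjusted p = 0.218) and *Dbp* -0.56 ± 0.24 (adjusted p = 0.288). These were the 2 of 10 members with an unadjusted p under 0.05 there, where 13.8% of all genes had one, against 0 in the lysates, where 5.11% did, and DESeq2 called 0 members in either. The remaining members ran from -0.30 (*Per3*) to 0.51 (*Cry2*) in heavy polysomes, and all 10 from -0.42 (*Per2*) to 0.36 (*Per3*) in lysates.

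Clock mRNAs also bear on whether groups or replicates were dissected at different hours. A balance of both arms was formed in each library as the mean log2 CPM of *Dbp*, *Nr1d1*, *Nr1d2* and *Per3* minus that of *Arntl*, *Clock* and *Npas2*, the last a stand-in for *Clock* in forebrain. In lysates it was 0.58, 0.57 and 0.75 in Acb wt and 0.65, 0.59 and 0.63 in Acb knockin mice, and 0.15, 0.23 and 0.28 in DS wt and 0.27, -0.02 and 0.30 in DS knockin mice. The genotypes overlapped in both regions, with knockin minus wt at -0.01 in the Acb and -0.04 in the DS, less than the spread between replicates. *Dbp* minus *Arntl* alone was 2.16, 1.99 and 2.93 in Acb wt lysates and 2.81, 1.80 and 1.71 in Acb knockin lysates, which overlapped too. The regions did not overlap, and the balance was 0.41 higher in the Acb than in the DS in wt and 0.44 higher in knockin lysates. With *Dbp* minus *Arntl* alone the lysates of the regions overlapped, since Acb knockin replicates 2 and 3 (1.80 and 1.71) lay below DS knockin replicate 3 (1.89). Of the genes in the balance, *Arntl* and *Clock* were lower in Acb lysates and *Npas2* gave -0.21 ± 0.11 (adjusted p = 0.217, edgeR), whereas in the other arm *Dbp*, *Nr1d2* and *Per3* did not pass the threshold and *Nr1d1*, which was lower as well, went against the difference in balance.

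In heavy polysomes the balance was 0.44, 0.88 and 1.01 in Acb wt, 0.65, 0.86 and 0.62 in Acb knockin, 0.33, 0.25 and 0.32 in DS wt and 0.84, 0.74 and 0.71 in DS knockin mice. The DS genotypes stood apart by 0.47, where replicates spread by 0.06 (SD), and with *Dbp* minus *Arntl* alone by 0.90. The DS lysates did not show it (knockin minus wt -0.04). The hour of dissection is given by no label, so that it cannot be told apart from region in the lysates. Its part in the difference between the DS genotypes in heavy polysomes was not tested. The sources do not say whether the Acb and DS libraries of a replicate number came from the same mice.

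**Figure D4:**
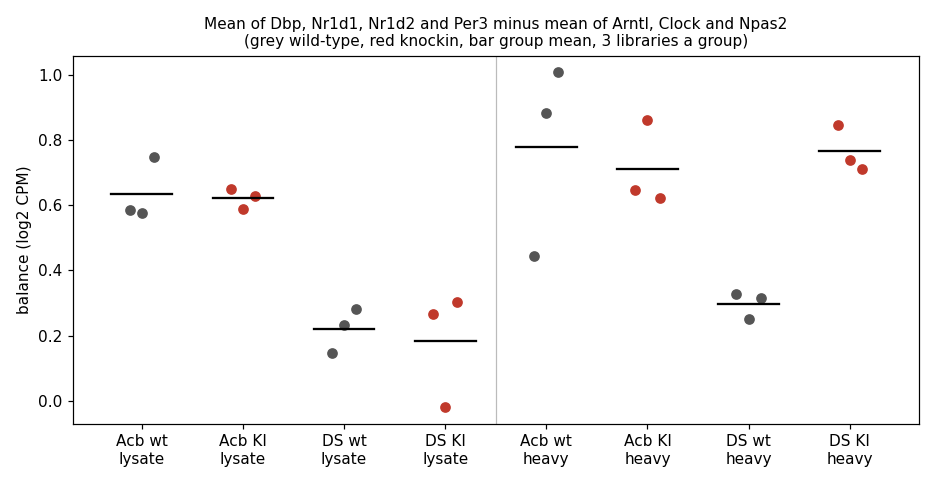
Balance of the clock arms (vertical axis, log2 CPM) in the 24 libraries by group, with lysates left and heavy polysomes right of the grey line, wt in grey, knockin in red and bars at group means. Acb lysates lie between 0.57 and 0.75 and DS lysates between -0.02 and 0.30, and the 3 knockin DS heavy libraries lie above the 3 wt ones.

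The SD within groups ran from 0.14 (*Nr1d2*) to 0.42 (*Per2*) on the log2 scale among the members, against a median of 0.28 over the 11979 genes with 50 or more reads. Beside genes of similar read number, *Per2* was more variable than 89.0% of them, *Per1* than 68.7% and *Dbp* than 63.4%, while *Nr1d2* exceeded 18.1% and the other members between 39.6% and 59.2%. *Per1* and *Per2* are the members also induced by stimulation. Deviations of the summed stimulus-induced genes such as *Fos* and *Junb* correlated at r = 0.53 with those of *Per1* (24 libraries, a description with no test). *Cry2* gave a higher value (0.62), *Arntl* 0.42 and *Per2* 0.40 (-0.02 in the Acb and 0.67 in the DS). The other members lay between -0.41 (*Dbp*) and 0.20 (*Nr1d1*). With glucocorticoid-induced genes such as *Fkbp5*, *Per1* gave 0.18, where the members ran from -0.26 (*Dbp*) to 0.32 (*Per3*).

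Deviations from the group means were then compared between members, over the 24 libraries, of which each lysate gave 2. Among the 45 pairs of members r ran from -0.74 to 0.74, with 4 pairs above 0.5 and 4 below -0.5. The lowest was *Dbp* with *Arntl* (Pearson's r -0.74, Spearman's rho -0.71), which deviated in opposite directions in 20 of 24 libraries and in 12 of 12 lysates. Deviations within a group are tied to each other through the group mean, so these are not counts of independent libraries. Some were very small, as in DS wt lysate 2 (0.02 for *Dbp* and -0.0004 for *Arntl*). Of 11978 genes only 4 correlated with *Dbp* more negatively. The value was -0.73 in the 12 lysates and -0.76 in the 12 heavy libraries, and without the 2 libraries farthest from the median of *Dbp* it was -0.63 and -0.49. It was -0.83 in the Acb and -0.52 in the DS, where it rested on 2 libraries (-0.12 without them). The balance and this pair did not extend to the whole loop, since *Dbp* correlated with *Nr1d1* at r = 0.08, with *Per3* at 0.06, with *Nr1d2* at 0.43 and with *Clock* at 0.38. Cortical markers moved with it, at r = -0.68 with *Dbp* in the Acb beside the 0.91 of *Arntl*, and their part in the pair was not tested.

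**Figure D5:**
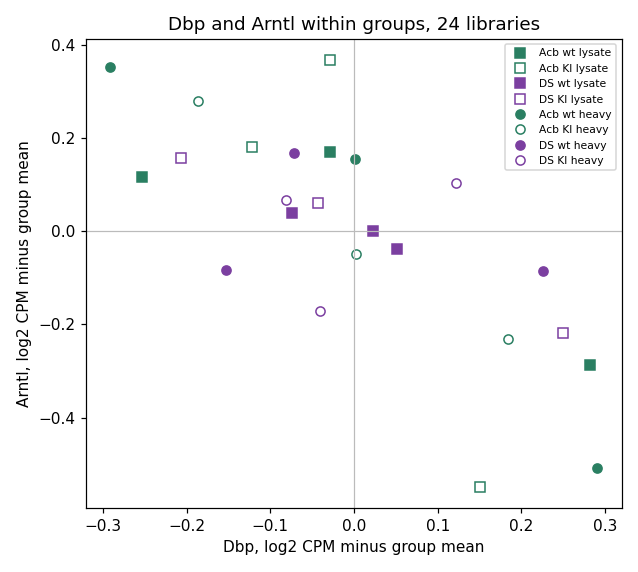
Deviation of *Arntl* (vertical axis) against that of *Dbp* (horizontal axis) from the mean of their group, in log2 CPM, for 24 libraries. Colour marks the region (green Acb, purple DS), squares lysates and circles heavy polysomes, filled wt and open knockin. The points run from upper left to lower right, with Acb libraries at both ends.

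The highest r was between *Per1* and *Cry2* (0.74, place 22 among 11978 genes), and *Per1* with *Per2* gave 0.66 (place 106). In the lysates alone these fell to 0.53 and 0.44. The genes most opposed to *Per1* were those of ribosomal proteins, *Rps3* (r = -0.90), *Rpl17* (-0.87) and *Rps27a* (-0.87), as was *Rps25* for *Cry2* (-0.91). Genes most like *Dbp* over the 24 libraries were *Pcif1* (r = 0.89), *Pvrl4* (0.86), *Htatip2* (0.77), *Tmed8* (0.77) and *Pard6b* (0.74), of which 1 remained in lysates alone and 1 in heavy polysomes alone. Those most like *Arntl* were *Mical2* (0.84), *Neurod6* (0.84), *Trim9* (0.82), *Dnajb5* (0.82) and *Nov* (0.81).

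The wider clock was counted over a list of 22 further genes. In lysates 7 were lower (against 9.56% of all genes) and 1 higher (9.71%) in the Acb than in the DS, led by *Nfil3*, a repressor at D-boxes (-0.96 ± 0.33, adjusted p = 0.0331, edgeR), *Bhlhe40* (-0.58 ± 0.11, adjusted p = 2.00e-05) and *Hlf* (-0.52 ± 0.08, adjusted p = 1.51e-06), with *Bhlhe41* the one that was higher (0.35 ± 0.10). *Rora* (-0.49 ± 0.11) and *Rorb* (-0.47 ± 0.14), which activate *Arntl* through the element shown above, were among those lower. *Nfil3* held only 26 to 80 reads per library in Acb lysates, and the regions overlapped (2.10 to 6.59 CPM against 4.73 to 12.1 in the DS). In heavy polysomes 2 were lower, *Hlf* and the kinase *Csnk1e*, and 1 higher, *Bhlhe41*, where 10.3% of all genes were lower and 9.44% higher. Between heavy polysomes and lysates 7 rose and 0 fell in the Acb, where 15.6% of all genes rose and 14.3% fell, among them *Nfil3* (0.97 ± 0.29, adjusted p = 0.0105) and *Csnk1e*, which phosphorylates PER proteins (0.48 ± 0.12, adjusted p = 0.00188). In the DS 4 rose and 2 fell, of 22, where 19.5% of all genes rose and 17.5% fell, led by *Csnk1e* (0.52 ± 0.11, adjusted p = 0.000113), *Bhlhe40* (-0.50 ± 0.12, adjusted p = 0.000403) and *Tef* (0.49 ± 0.09, adjusted p = 1.40e-05). Genotype and the interactions gave 0 calls among the 22 with edgeR, where at most 0.122% of all genes were called. Between genotypes an unadjusted p under 0.05 was found for 5 of 22 in Acb heavy polysomes (21.7% of all genes) and 1 in Acb lysates (2.96%). The interaction with fraction gave 2 in the Acb (11.9%) and that with region 3 in heavy polysomes (13.8%). The other 4 comparisons gave 0, where 4.90% to 9.07% of all genes had one.

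Genes that respond to handling were counted in the same way. Of 12 stimulus-induced genes, 3 were lower in Acb than in DS lysates (against 9.56% of all genes). In heavy polysomes 4 were lower (10.3%), and 0 were higher in either. The genotype comparisons gave 0 calls with edgeR, where 0% to 0.122% of all genes were called. An unadjusted p under 0.05 was found for 5 of 12 in DS lysates, against 9.07% of all genes. The median log2 fold change of the 12 was -0.31 there. Counts were 4 in Acb heavy polysomes (21.7%), 2 in DS heavy polysomes (6.42%) and 0 in Acb lysates (2.96%). Of 8 glucocorticoid-induced genes, *Mt2* was higher in knockin than in wt DS heavy polysomes (0.98 ± 0.20, adjusted p = 0.0382, edgeR), where 0.044% of all genes were called. In the genotype comparisons 0 others passed. Between regions 1 was higher (against 9.71% of all genes) and 2 lower (9.56%) in Acb lysates. In heavy polysomes 0 of 8 were called between regions, where 19.8% of all genes were.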

How the data were processed

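Raw counts of reads per gene, deposited by the authors for 24079 genes in 24 libraries without normalization or filter, were used. Per the submitters' processing notes and the paper's methods, stranded poly-A libraries were read on a HiSeq2000, base-called with CASAVA 1.8.2, checked with FastQC, aligned to mm10 with TopHat2 2.0.13 and Bowtie2 2.2.3, and counted with HTSeq 0.6.1p1 after alignments with more than 3 mismatches were dropped. Genes with under 15 reads summed over a comparison were removed, and groups were compared with edgeR 4.0.16 (TMM, glmQLFit with legacy settings, Benjamini-Hochberg) in R 4.3.3. Log2 CPM used a prior count of 2. DESeq2 1.42.0 was an alternative, and Python 3.11.15 with pandas 2.3.3, SciPy 1.17.1 and matplotlib 3.10.9 gave descriptions and figures. Groups came from the sample titles. Region and fraction comparisons held genotype as a term.

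In every comparison the 10 members are given by value or within a stated range. Of other clock genes called, some with the largest changes are named, without values in heavy polysomes between regions. *Tef*, *Hlf*, *Rora* and *Rorb* were added for their roles after values were seen. Some genes of the lists are counted but not reported by name here. The members, lists and tests were chosen with earlier results of these data known. Merged exons are those of GENCODE M21 transcripts tagged basic, and positions are RefSeq's on GRCm38.p6, the build of mm10.

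Heavy and lysate libraries of a replicate were paired only in the differences per lysate and in the alternative with the lysate as a block. The main tests between fractions and of the interactions did not use the pairing. It rests on the methods, which keep the input from the sample loaded on the gradient. Correlations of the residuals of paired libraries over all genes were -0.04 to 0.07, 0 of 12 over 0.1. Replicates are pools of mice, and p-values measure only the spread between these pools. On simulated counts with 200 genes changed by 1.5 (log2), edgeR recovered 162 to 191 with 6 to 21 other calls in the 8 comparisons of groups (14987 to 16580 genes) and 135 to 149 with 7 to 13 in the 4 interactions (16047 to 16601 genes). The members' differences between genotypes were all smaller than this, and changes of their size were not simulated.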

Additional observations from a re-analysis of the deposited data

Results flagged for a closer look

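*Per3* in the DS gave opposite signs between genotypes: heavy polysomes minus lysate was -0.19 on the log2 scale on average in wt mice, below 0 in 3 of 3 lysates, and 0.21 in knockin mice, above 0 in 3 of 3. The interaction of genotype and fraction, which tests this difference, was 0.38 ± 0.31 with an adjusted p of 1 (edgeR).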

How the results depend on the processing

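Counts of members called kept within 1.5 times their value under every alternative in 9 of the 12 comparisons. In the genotype comparison of Acb heavy polysomes DESeq2 called 1 member, *Cry2*. In the regional comparison of heavy polysomes, where 0 were called, DESeq2's size factors, filterByExpr and wt libraries alone each called 1, DESeq2's test and a fit of all 24 libraries called 2, and leaving out 1 library at a time gave 0 to 1 (1 without Acb wt replicate 1, Acb knockin replicate 2 or 3, or DS knockin replicate 3). Of the 5 called between heavy polysomes and lysate in the Acb, 3 were called in knockin libraries alone. Between fractions, *Per1*, *Per2* and *Dbp* were called in both regions under all 16 alternatives, and *Nr1d2* under all 16 in the DS and 15 in the Acb. Between regions in lysates, *Arntl*, *Clock* and *Nr1d1* were called under all 20. The replicate block (the lysate as a block) gave 4 calls in the Acb and 7 in the DS between fractions and changed no call other than that of *Cry1*. No fold change of a called member changed sign. Without TMM scaling, 16 of 80 group means of CPM moved by more than their SD. Of the differences in balance under alternative definitions, 9 moved by at least the SD between replicates and 15 did not.

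Counts over all genes depended more on the method. Those between genotypes went from 0 to 1090 in Acb heavy polysomes, 5 in Acb lysates, 37 in DS heavy polysomes and 95 in DS lysates over the alternatives that kept all libraries, against 0, 1, 7 and 19, and those of the interactions from 0 to 107, 6, 5 and 479, against 0, 0, 1 and 1. The main tests did not treat same-numbered libraries as paired across regions or genotypes. No source says what a number shared across them marks. Residuals over all genes correlated above 0.1 in 1 of 12 pairs of regions and 2 of 12 pairs of genotypes. The replicate block alternative did use that number as a block in these comparisons. It gave, for example, the 5 genes in Acb lysates and the 479 of the interaction of genotype and region in heavy polysomes. With 3 pools a group, differences well above their standard errors also went uncalled. An example is *Cry2* between genotypes in Acb heavy polysomes (0.51 ± 0.17, adjusted p = 0.130, edgeR). A comparison without a call therefore does not show that a member was unchanged.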
